A study of Mus musculus with 141 samples.

Results

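Expression of 7 genes that encode oxidizing enzymes was examined in liver, lung and kidney: the flavin monooxygenases Fmo1, Fmo2, Fmo4 and Fmo5, the aldehyde oxidases Aox1 and Aox3, and xanthine dehydrogenase, Xdh. They were taken by gene name from the 24423 genes measured in each RNA-seq library, with 47 libraries per tissue. The mice came from 47 strains of the Collaborative Cross (CC), a panel of recombinant inbred lines derived from a shared set of founder strains, with 1 adult male per strain and all 3 tissues from each mouse. All mice received the same wafer diet and the same daily periods of clear air in mesh chambers, so no treatment was compared. As each strain is a single mouse, differences between strains and between individual mice cannot be told apart.

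Flavin monooxygenases (FMOs) are membrane enzymes of the endoplasmic reticulum that use FAD, NADPH and oxygen to add an oxygen atom to nitrogen or sulfur in drugs and dietary amines. Aldehyde oxidases and xanthine dehydrogenase are related cytosolic enzymes with a molybdenum cofactor, iron-sulfur centers and FAD. Aldehyde oxidases oxidize aldehydes and nitrogen heterocycles, among them many drugs, and xanthine dehydrogenase forms uric acid at the end of purine breakdown.

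In the NCBIM37 genome, Fmo4 (chromosome 1, 164724014 to 164743803), Fmo1 (164759692 to 164796679) and Fmo2 (164804448 to 164828843) lie side by side on the minus strand, with 15888 bases between Fmo4 and Fmo1 and 7768 between Fmo1 and Fmo2. Aox1 (chromosome 1, 58086775 to 58163257) and Aox3 (58169980 to 58257542) lie on the plus strand, 6722 bases apart. Fmo5 is on chromosome 3 (97432727 to 97459205, plus strand) and Xdh on chromosome 17 (74233248 to 74299522, minus strand). The 250 bases before the annotated start are shown for the neighbors Aox1 and Aox3 and for the neighbors Fmo1 and Fmo2, since the levels of these neighbors are set side by side in the results, read 5′ to 3′ on the strand of the gene from NCBIM37 (GENCODE vM1), with capitals marking every match to the searched motifs on either strand. Aox1 is at chr1:58086525-58086774, Aox3 at chr1:58169730-58169979, Fmo1 at chr1:164796680-164796929 and Fmo2 at chr1:164828844-164829093.
Aox1: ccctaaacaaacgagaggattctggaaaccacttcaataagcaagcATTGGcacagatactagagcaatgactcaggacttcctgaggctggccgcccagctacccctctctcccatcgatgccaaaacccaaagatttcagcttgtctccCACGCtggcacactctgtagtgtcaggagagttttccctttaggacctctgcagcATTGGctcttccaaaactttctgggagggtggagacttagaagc
Aox3: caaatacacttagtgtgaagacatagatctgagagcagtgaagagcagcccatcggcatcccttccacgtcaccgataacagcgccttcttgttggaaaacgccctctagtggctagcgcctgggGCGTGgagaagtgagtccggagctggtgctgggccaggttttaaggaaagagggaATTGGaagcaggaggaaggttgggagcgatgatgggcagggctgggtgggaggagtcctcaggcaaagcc
Fmo1: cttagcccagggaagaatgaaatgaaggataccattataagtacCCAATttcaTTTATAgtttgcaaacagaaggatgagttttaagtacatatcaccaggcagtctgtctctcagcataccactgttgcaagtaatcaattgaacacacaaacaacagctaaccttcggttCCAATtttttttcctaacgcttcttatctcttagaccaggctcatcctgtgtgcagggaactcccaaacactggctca
Fmo2: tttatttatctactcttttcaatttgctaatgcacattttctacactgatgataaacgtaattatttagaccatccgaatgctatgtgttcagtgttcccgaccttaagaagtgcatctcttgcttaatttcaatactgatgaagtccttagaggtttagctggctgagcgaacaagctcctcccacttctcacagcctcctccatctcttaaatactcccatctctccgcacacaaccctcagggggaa
The searched words were the TATA box TATAAA (in 12.3% of the 250-base windows of 22227 protein-coding genes), the CCAAT box CCAAT (34.8%), the antioxidant response core TGACNNNGC (9.9%), the xenobiotic response core GCGTG (33.2%), the nuclear receptor core AGGTCA (12.2%) and the HNF1 core GTTAAT (5.6%). Both Aox windows held CCAAT and GCGTG, with CCAAT at -204 and -44 in Aox1 and at -70 in Aox3, and GCGTG at -99 in Aox1 and -125 in Aox3. The Fmo1 window held TATAAA at -197 and CCAAT at -206 and -78, and the Fmo2 window held none of the 6 words. No matches overlapped. These are letter matches, and none was tested for binding. The annotated start is that of the longest protein-coding transcript of each gene. Whether it is the start in use in these tissues was not tested.

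Total counts per library ranged from 1738046 to 42158454. Rn45s, which stands for the ribosomal RNA precursor, took between 0.146% and 71.7% of a library's counts, and Lars2 up to 22.1%. Levels of a gene are therefore given as CPM, its count relative to a library size corrected by TMM, which sets most genes level between libraries (TMM-scaled CPM), and levels of different genes are compared only as TPM, which is per transcript length, within a library. The liver marker list summed to between 68300 and 190000 CPM in liver and at most 1110 CPM elsewhere, the lung list to between 3100 and 7580 in lung and at most 97.9 elsewhere, and the kidney list to between 8950 and 32100 in kidney and at most 733 elsewhere. The library least like its tissue was the liver of CC033, with a median correlation of 0.878 with the other livers across genes and 69.0% of counts in Rn45s, followed by the lung of CC015 (0.898 and 71.7%). Whole tissues were sequenced, so fewer cells of a type and less RNA per cell cannot be told apart in any result.

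Tissues were compared with limma-voom over 12127 genes with strain as a replicate block, where a call needs q ≤ 0.1 and at least a 2-fold difference (log2 fold change of 1). Between liver and lung, 5 of the 7 genes were higher in liver (Fmo1, Fmo4, Fmo5, Aox1 and Aox3), against 23.9% of all genes tested, and 1 of 7 (Fmo2) was higher in lung, against 31.0%. Between liver and kidney, 5 of 7 were higher in liver (Fmo1, Fmo5, Aox1, Aox3 and Xdh), against 15.6% of all genes, and 1 of 7 (Fmo2) was higher in kidney, against 20.8%. Between lung and kidney, 5 of 7 were higher in lung (Fmo1, Fmo2, Aox1, Aox3 and Xdh), against 25.5%, and 2 of 7 (Fmo4 and Fmo5) were higher in kidney, against 20.6%. Among the 5 members with 1 named transcript (all but Fmo1 and Fmo5), TPM within libraries was led by different genes: Aox3 had the highest median in liver (632 TPM), and Fmo2 had the highest in lung (940 TPM) and in kidney (299 TPM).

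**Figure D1:**
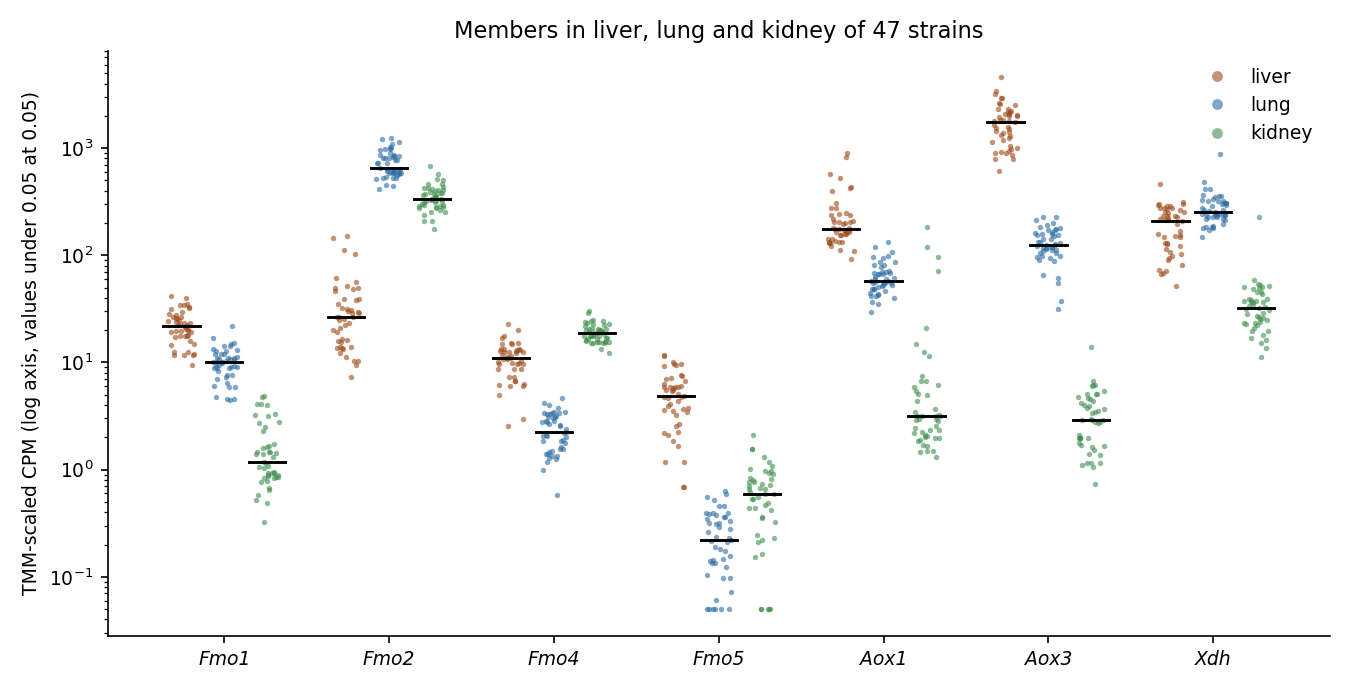
TMM-scaled CPM (log axis) of the 7 genes, with 1 point per mouse and a black bar at the median of the 47 mice of each tissue; values under 0.05 are drawn at 0.05. Aox3 ran from a median of 1762 in liver to 2.92 in kidney, Fmo2 was highest in lung and lowest in liver, and 4 kidneys stood above the rest for Aox1.

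Aox3, an aldehyde oxidase known from rodent liver, had the widest range between tissues. Its level in liver was 604 CPM at the lowest, 1762 at the median and 4567 at the highest. In lung it was 31.6, 125 and 228 CPM, and in kidney 0.738, 2.92 and 13.9 CPM. The 3 tissues did not overlap. The log2 fold change was 3.75 ± 0.12 (SE) for liver over lung, 9.36 ± 0.14 for liver over kidney and 5.61 ± 0.14 for lung over kidney, with limma q of 5.38e-53, 2.46e-82 and 1.86e-62, and each direction was seen in 47 of 47 mice. The liver marker list had a median sum of 162 CPM in kidney (highest 1110), against 110000 in liver. The part of this in the low kidney values of Aox3 was not tested. In TPM, Aox3 was above Aox1 in 47 of 47 livers and in 46 of 47 lungs.

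Aox1, the neighboring aldehyde oxidase, was also highest in liver and lowest in kidney. Its level was 92.3, 177 and 893 CPM (lowest, median, highest) in liver, 29.4, 58.0 and 133 CPM in lung and 1.30, 3.14 and 185 CPM in kidney. The ranges overlapped between every pair of tissues, but liver was above lung and above kidney in 47 of 47 mice. The log2 fold change of liver over lung was 1.84 ± 0.18 (limma q = 1.56e-16), and it was 0.41 (q = 0.0767) on total counts and 0.29 (q = 0.126) on log2(TPM + 1), where liver was the higher in 24 of 47 mice by TPM. Liver exceeded kidney by a log2 fold change of 5.13 ± 0.19 (q = 1.7e-45), and lung exceeded kidney by 3.29 ± 0.19 (q = 1.72e-30), in 43 of 47 mice. The 4 mice with the higher kidney value were of CC015, CC024, CC030 and CC040.

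Xdh, which encodes the enzyme that makes uric acid, was high in lung and liver and low in kidney. Its level was 149, 250.5 and 879 CPM (lowest, median, highest) in lung, 52.1, 210.5 and 460 CPM in liver and 11.3, 32.1 and 226 CPM in kidney. Lung was above liver in 42 of 47 mice, but by a log2 fold change of only -0.62 ± 0.07 (liver minus lung, q = 6.62e-13), short of the 2-fold threshold. That difference was -2.001 on total counts and -1.80 on total counts less Rn45s and Lars2, past the threshold on both. Kidney was below liver by 2.51 ± 0.08 (q = 4.57e-54) and below lung by 3.13 ± 0.08 (q = 9.16e-63) on the log2 scale, each in 47 of 47 mice. In TPM, Xdh ranked directly below Fmo2 in lung (median 265.6 TPM), in 47 of 47 mice.

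Fmo2, the flavin monooxygenase known as the lung form, was above Fmo4, in TPM, in lung and kidney. It ran from 416 to 1251 CPM in lung (median 653), from 177 to 684 CPM in kidney (median 337) and from 7.33 to 150.3 CPM in liver (median 26.7). Liver did not overlap with lung or kidney, whereas lung and kidney overlapped. Liver differed from lung by a log2 fold change of -4.66 ± 0.11 (q = 2.58e-62). The corresponding values were -3.53 ± 0.11 for liver against kidney (q = 2.18e-51) and 1.12 ± 0.11 for lung against kidney (q = 1.45e-16), with lung above kidney in 46 of 47 mice. Fmo2 was the least even of the members in liver, where the highest library was 20.5 times the lowest and the SD of log2 CPM was 1.02, more than in 91.7% of the genes of liver.

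Fmo4, a less studied member of the family, was the member with its highest median level in kidney. It ran from 12.3 to 29.9 CPM in kidney (median 18.8), from 2.53 to 22.9 CPM in liver (median 11.02) and from 0.585 to 4.66 CPM in lung (median 2.26). Kidney did not overlap with lung. Kidney exceeded lung with a log2 fold change of -2.96 ± 0.09 (lung minus kidney, q = 1.37e-53, 47 of 47 mice). Kidney also exceeded liver in 43 of 47 mice, at -0.80 ± 0.09 (liver minus kidney, q = 1.1e-14), which is short of 2-fold, and at -1.75 on total counts, which is past it. Liver exceeded lung by 2.16 ± 0.09 (q = 5.3e-42), and by 0.83 on total counts. Its spread between kidneys was small, with an SD of log2 CPM of 0.27 against a median of 0.36 over the genes of kidney.

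Fmo1, a liver and kidney form of the family in many mammals, was lowest in kidney in these males. It ran from 9.51 to 41.9 CPM in liver (median 21.8), from 4.49 to 22.0 CPM in lung (median 10.04) and from 0.325 to 4.89 CPM in kidney (median 1.19). Kidney lay below liver without overlap and below lung in 47 of 47 mice, with a log2 fold change of 3.95 ± 0.12 for liver (q = 6.77e-54) and 2.82 ± 0.12 for lung (q = 1.11e-41). The transcript length that the files give for Fmo1 had a median of 1619 bases in kidney, 2357 in liver and 2245 in lung. The part of transcripts that share reads in these tissue differences was not tested. The order of liver and lung rested on the scale. Liver was higher on TMM-scaled counts (1.13 ± 0.11, q = 8.84e-17, 45 of 47 mice), lower on log2(TPM + 1) (-0.38, q = 0.0107), and -0.21 on total counts (q = 0.281) and -0.05 on total counts less Rn45s and Lars2 (q = 0.643).

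Fmo5, which differs from its relatives in oxidizing ketones, was the member with the lowest counts. It reached a median of 4.82 CPM in liver (range 0.688 to 11.8), 0.595 CPM in kidney (0.0 to 2.08) and 0.222 CPM in lung (0.0 to 0.632). At most 3 counts were found in 3 livers, 14 kidneys and 25 lungs. Liver exceeded lung by a log2 fold change of 4.28 ± 0.16 (q = 4.51e-47, 47 of 47 mice) and kidney by 3.16 ± 0.15 (q = 9.9e-37, 46 of 47 mice). Kidney exceeded lung by 1.11 on the log2 scale (-1.11 ± 0.16 as lung minus kidney, q = 2.93e-10), in 35 of 47 mice, and by less than the threshold on 5 of 13 other settings. The files name 3 transcripts each for Fmo1 and Fmo5 and 1 for each other member. Of genes with more than 1 transcript named, 32.2% passed the low-count filter, against 55.5% of genes with 1. Whether reads shared between transcripts were lost for Fmo1 and Fmo5 was not tested, so their TPM is not set against that of the others, and the same limit holds for their tissue differences.

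**Figure D2:**
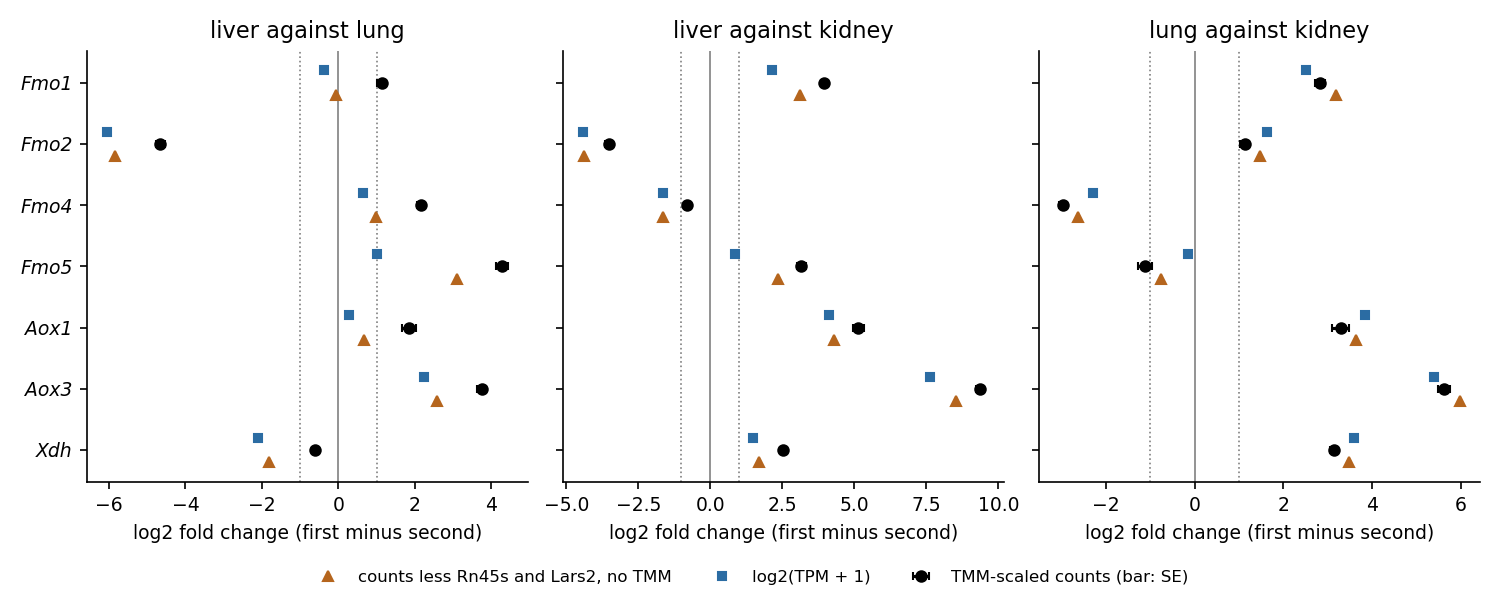
log2 fold change of each gene (first tissue minus second) in the 3 tissue pairs: TMM-scaled counts with their standard error (black), total counts less Rn45s and Lars2 without TMM (triangles) and log2(TPM + 1) (squares), with dotted lines at the fold threshold. Fmo1 in liver against lung lay at 1.13 on TMM-scaled counts and at -0.05 and -0.38 on the other scales.

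The scale mattered most for liver against lung. The median log2 fold change of all genes was -0.06 on TMM-scaled counts, and total counts without TMM moved it by -1.37, log2(TPM + 1) by -1.36 and total counts less Rn45s and Lars2 by -1.18. On these 3 scales the 7 genes kept their order by log2 fold change, except that Aox3 passed Fmo5 on log2(TPM + 1). On each of the 3, only Fmo5 and Aox3 were past the threshold toward liver, and Fmo2 and Xdh toward lung.

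Among relatives, Fmo6 had a median of 1.08 CPM in lung and at most 3 counts in 47 of 47 livers and 47 of 47 kidneys. Fmo9 had at most 3 counts in 47 of 47 livers and lungs and in 46 kidneys. Of the other genes of the aldehyde oxidase cluster, Aox2 had at most 3 counts in 47 livers, 32 lungs and 38 kidneys, and Aox4 in 45 livers, 28 lungs and 44 kidneys.

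Of 10 genes for other molybdenum enzymes and for synthesis of the cofactor, 7 were tested. Between liver and lung, 6 of these were higher in liver and 0 in lung, with a median log2 fold change of 2.59 against -0.06 over all genes. Between lung and kidney, 5 were higher in kidney and 0 in lung (median -1.64 against 0.04), and between liver and kidney, 3 were higher in liver and 0 in kidney (median 0.75, against a median near 0 over all genes). On total counts, 5 were higher in liver than in lung, 2 were higher in liver than in kidney and 5 were higher in kidney than in lung, with 0 in the other direction, and the median for liver against kidney was -0.20. Mitochondrial sulfite oxidase, Suox, averaged 155 ± 35.8 CPM (SD, n = 47) in liver, 11.1 ± 1.58 in lung and 97.7 ± 16.5 in kidney. The amidoxime reducing component Marc1 averaged 448 ± 90.01 CPM in liver, 0.716 ± 0.438 in lung and 2.21 ± 1.73 in kidney, and Marc2 averaged 434 ± 90, 31.2 ± 4.72 and 164 ± 23.9 CPM. Mocos, the sulfurase that activates the cofactor of aldehyde oxidase and xanthine dehydrogenase, averaged 66.4 ± 14.3 CPM in liver, 11.2 ± 2.45 in lung and 17.7 ± 4.20 in kidney. Among genes for cofactor synthesis, Gphn averaged 10.7 ± 3.26, 2.46 ± 0.635 and 8.19 ± 2.15 CPM, Mocs2 averaged 7.33 ± 2.09, 1.32 ± 0.377 and 4.58 ± 1.004, and Mocs3 averaged 3.96 ± 1.35, 2.39 ± 0.902 and 3.60 ± 1.04 CPM in liver, lung and kidney. Mocs1 was not tested and had a median of 1.30 CPM in liver. Thus lung, where Xdh had its highest median, had the lowest TMM-scaled averages of these 7 genes, and for Mocs3 the order of liver and lung was the other way on total counts (log2 fold change -0.62, q = 0.000338, against 0.73 on TMM-scaled counts).

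Of 16 genes of purine breakdown and salvage, 9 were tested. Between liver and lung, 5 were higher in liver and 1 in lung, and between liver and kidney, 3 were higher in liver and 1 in kidney, while between lung and kidney, 1 was higher in lung and 3 in kidney. On total counts the first of these comparisons fell to 2 higher in liver and 1 in lung, and its median went from 1.25 to -0.17. Uox, which oxidizes the uric acid that Xdh forms, averaged 2116 ± 745 CPM in liver against 2.23 ± 3.07 in lung (log2 fold change 10.37 ± 0.13, q = 4.04e-89) and 1.81 ± 2.75 in kidney (10.97 ± 0.14, q = 1.04e-86). Urah, which acts after Uox, was higher in liver than in lung by 6.80 ± 0.09 (q = 4.59e-87) and than in kidney by 6.22 ± 0.09 (q = 1.4e-83). Between lung and kidney, guanine deaminase, Gda, was higher in lung by 1.67 ± 0.10 (q = 2.65e-29), and the salvage enzyme Aprt was higher in kidney, at -1.61 ± 0.08 (lung minus kidney, q = 2.88e-34). Lung, where Xdh had its highest median (250.5 CPM), thus had a low level of Uox relative to liver, as did kidney.

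Of 5 genes of flavin cofactor supply, 4 were tested, with 2 higher in liver and 0 in lung, 1 higher in liver and 1 in kidney, and 0 higher in lung and 2 in kidney. On total counts, 0 were higher in liver and 2 in lung, 0 in liver and 2 in kidney, and 0 in lung and 1 in kidney, so for this list the direction between liver and lung rested on the scale. The FAD synthase gene Flad1 was higher in liver than in lung (2.20 ± 0.04, q = 4.86e-71) and in kidney than in lung (-1.35 ± 0.04 as lung minus kidney, q = 9.69e-52), and these were 0.86 and -0.94 on total counts, short of 2-fold. The mitochondrial folate and FAD carrier Slc25a32 was higher in liver than in lung (1.49 ± 0.07, q = 1.86e-40) and kidney (1.17 ± 0.07, q = 3.1e-32), and the same differences were 0.10 and 0.19 on total counts and -0.02 and 0.16 on log2(TPM + 1). The riboflavin transporter Slc52a2 was higher in kidney than in liver (-2.25 ± 0.07 as liver minus kidney, q = 3.74e-55) and lung (-2.13 ± 0.06 as lung minus kidney, q = 1.37e-53). Of 9 target genes of NRF2, the transcription factor of the response to oxidants, 4 were higher in liver and 2 in lung between those tissues, 0 were higher in liver and 2 in kidney between those, and 1 was higher in lung and 5 in kidney between the last pair. On total counts the first of these became 1 higher in liver and 4 in lung, and the second 0 and 5. The glutathione synthesis gene Gclm was higher in liver than in lung (3.07 ± 0.06, q = 5.83e-71) and in kidney than in lung (-3.26 ± 0.06 as lung minus kidney, q = 3.8e-73). The cystine transporter Slc7a11 was higher in lung than in liver (-3.67 ± 0.27 as liver minus lung, q = 6.97e-24) and kidney (3.20 ± 0.27, q = 1.92e-20). Nqo1 (-1.91 ± 0.13 as liver minus kidney, q = 1.69e-26) and G6pdx (-1.36 ± 0.07, q = 1.74e-32), both of the supply or use of NADPH, were higher in kidney than in liver.

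Strains were compared with the F test of the strain term in the same limma fit. It asks whether strains differ in their level averaged over the 3 tissues, so a difference in a single tissue can also pass. Of the 7 genes, 4 passed q ≤ 0.1, against 58.9% of all genes tested: Xdh (F = 6.64, q = 1.22e-13), Fmo5 (F = 1.78, q = 0.0211), Aox3 (F = 1.55, q = 0.0667) and Aox1 (F = 1.47, q = 0.0972). Fmo2 (q = 0.368), Fmo1 (q = 0.401) and Fmo4 (q = 0.648) did not pass. Xdh passed in each of 13 other settings, with q of at most 0.00103, whereas Aox1, Aox3, Fmo5 and Fmo2 crossed the threshold in some. The call held in 7 of the 13 for Aox3, in 6 for Aox1 and in 9 for Fmo5. For Aox3, q was 0.624 by edgeR's quasi-likelihood test and 0.615 by limma on log2(TPM + 1). For Fmo5, q was 0.373 and 0.131 in the same settings. After removal of the tissue means, strain held 77.3% of the variance of log2 CPM for Xdh and 50.3% for Aox1. For the other 5 genes it held between 28.8% and 38.8%. If strains were alike, 33.3% would be expected. The share was 31.3% for Aox3 and 36.1% for Fmo5, so neither call shows a strain difference shared by the 3 tissues.

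Between-tissue correlations over the 47 strains were computed on rank inverse normal TPM for the 19 gene and tissue pairs with a median count above 3 in both tissues, with 100000 two-sided permutations each, and 4 passed q ≤ 0.1, all positive. Of these, 3 belonged to Xdh. For its levels in liver and kidney, r was 0.79 and rho was 0.82 (permutation p = 1e-05 for both, the smallest that the permutations can give, q = 0.00019 for both). Liver and lung gave r = 0.62 (p = 2e-05, q = 0.00019) and rho = 0.60 (p = 3e-05, q = 0.000285), and this call was lost on TPM without TMM (r = 0.30, q = 0.193). Lung and kidney gave r = 0.55 and rho = 0.57 (p = 6e-05 and q = 0.00038 for both). When the 2 most extreme strains of each relation were left out, r became 0.76, 0.53 and 0.51.

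**Figure D3:**
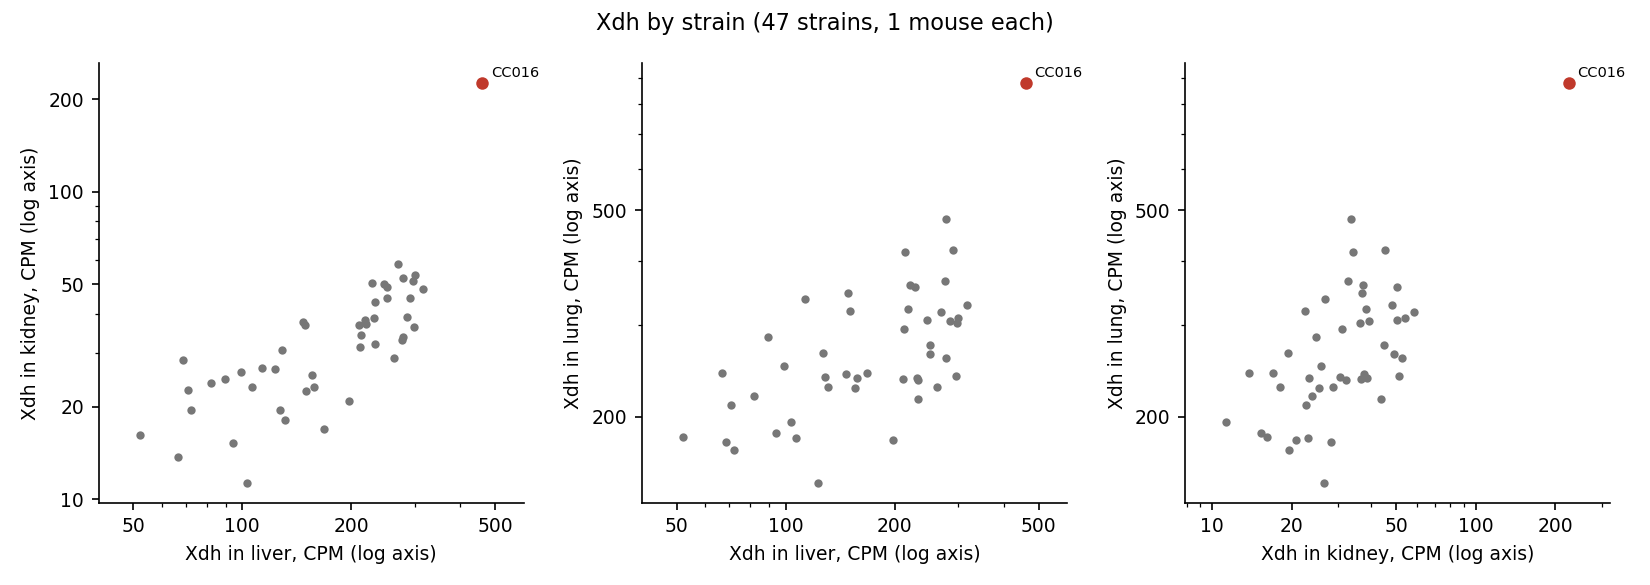
TMM-scaled CPM (log axes) of Xdh in each pair of tissues, with 1 point per strain. The points rose together in all 3 panels, and CC016 (red) was highest in liver (460 CPM), lung (879 CPM) and kidney (226 CPM).

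CC016 had the highest Xdh level in all 3 tissues, at 460 CPM in liver, 879 in lung and 226 in kidney, where the next strains had 316 (CC037), 480 (CC015) and 58.4 CPM (CC020). Without CC016, r was 0.76 between liver and kidney (q = 0.00019), 0.56 between liver and lung (q = 0.000665) and 0.48 between lung and kidney (q = 0.00347). The liver of CC016 also had the highest sums of the 47 livers for the macrophage markers (1130 CPM, median 256) and the fibroblast markers (317 CPM, median 79.5) and 60.1% of its counts in Rn45s, while its lung had the lowest fibroblast sum of the lungs (365 CPM) and its kidney ranked 3 of 47 for the macrophage sum (130 CPM) and 46 for the kidney markers (10900 CPM), with 52.0% of counts in Rn45s. The kidney of CC020 ranked 47 for the kidney markers (8950 CPM) and 1 for the macrophage (333 CPM) and fibroblast (810 CPM) sums, so the 2 kidneys highest in Xdh were the 2 lowest in kidney markers. The part of these in the Xdh levels was not tested. In liver, 22 strains had between 52.1 and 168 CPM of Xdh and 25 strains had between 198 and 460 CPM. The step between CC016 (460 CPM) and CC037 (316 CPM) was wider than the gap between these 2 sets.

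Aox1 set 4 strains apart in kidney. CC024 had 185 CPM, CC030 119 CPM, CC040 97.1 CPM and CC015 71.0 CPM, whereas the other 43 strains ran from 1.30 to 20.8 CPM. The same strains ranked 2 (821 CPM), 3 (570.1 CPM), 1 (893 CPM) and 5 (430 CPM) of 47 in liver. In lung they ranked low, at 43 (41.4 CPM), 38 (46.3 CPM), 47 (29.4 CPM) and 41 (42.5 CPM). The 4 strains were thus among the highest for Aox1 in 2 tissues and in the lower part of the range in the third. They were picked out after their values were seen, so no test was made of them. Their kidneys had 51.0% (CC024), 34.2% (CC030), 43.3% (CC040) and 44.9% (CC015) of counts in Rn45s, against a kidney median of 25.4%. The same kidneys ranked 42, 36, 46 and 45 of 47 for the endothelial sum (142, 146, 119 and 123 CPM, median 156) and between 6 and 16 for the kidney markers. The part of these in the Aox1 values was not tested.

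In lung, the same 4 strains were at the low end for the neighboring gene Aox3, without a clear step to the others. They held the 4 lowest lung values, with CC024 at 31.6 CPM, CC040 at 37.0 CPM, CC030 at 54.6 CPM and CC015 at 61.6 CPM, and the next strain, CC053, had 65.2 CPM. In liver CC040 (4567 CPM) and CC024 (3374 CPM) were the highest 2 for Aox3, CC015 ranked 6 (2607 CPM) and CC030 ranked 18 (1972 CPM). In kidney, where Aox3 had few counts, they ranked between 7 and 26. The lungs of CC015 and CC024 had 71.7% and 53.9% of their counts in Rn45s, and those of CC030 and CC040 had 16.2% and 14.5%. The lung of CC040 had the highest fibroblast sum (2040 CPM) and the lowest endothelial sum (748 CPM) of the 47 lungs, and that of CC015 had the lowest sum of ciliated cell markers (175 CPM) and the third lowest of fibroblast markers (387 CPM). The part of these in the Aox values was not tested.

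**Figure D4:**
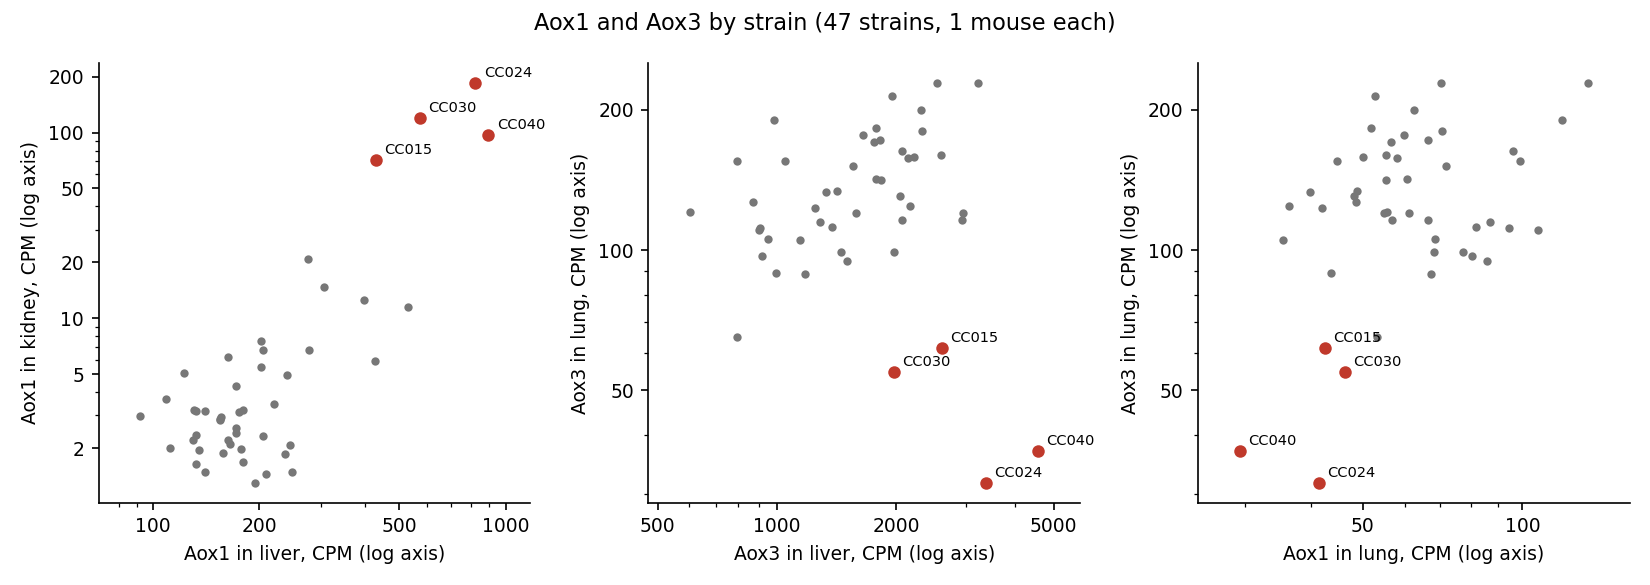
TMM-scaled CPM (log axes) of Aox1 and Aox3 with 1 point per strain: Aox1 in liver and kidney, Aox3 in liver and lung, and Aox1 and Aox3 in lung. CC015, CC024, CC030 and CC040 (red) held the 4 highest Aox1 values in kidney and the 4 lowest Aox3 values in lung.

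Over all 47 strains, the liver level of Aox1 correlated with its kidney level (r = 0.49, with a permutation p of 0.00055 and q of 0.00261; rho = 0.49, p = 0.0005, q = 0.00237; r = 0.38 without the farthest 2 strains). It did not pass by r between liver and lung (r = 0.24, permutation p = 0.104, q = 0.284; rho = 0.36, p = 0.0135, q = 0.0511; r = 0.49 without 2), nor between lung and kidney (r = 0.05, p = 0.764, q = 0.806; rho = 0.10, p = 0.488, q = 0.575). No pair of tissues passed for Aox3, with r = 0.13 between liver and lung (permutation p = 0.39, q = 0.494; rho = 0.24, p = 0.107, q = 0.235; r = 0.40 without 2), 0.11 between liver and kidney (q = 0.55) and -0.17 between lung and kidney (q = 0.445). Most of these values moved when the 4 strains were left out. Over the other 43, as a description with no test since the strains were left out for the values being correlated, r of Aox1 was 0.34 between liver and kidney, 0.65 between liver and lung and 0.36 between lung and kidney, and r of Aox3 between liver and lung was 0.54. Aox1 and Aox3, though adjacent, did not pass a correlation with each other over the 47 strains, as r was 0.28 in liver (permutation q = 0.38) and 0.31 in lung (q = 0.253), and kidney had r = 0.17 (q = 0.627). The pair did pass in lung on log2 CPM (r = 0.41, q = 0.0441) and on TPM without TMM (r = 0.71, q = 4.75e-05), and in liver on TPM without TMM (r = 0.36, q = 0.0359).

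For the FMO genes, no between-tissue correlation passed. The smallest p was that of Fmo2 in lung with kidney (r = 0.29, at a permutation p of 0.0495 and q of 0.188; rho = 0.31, p = 0.0355, q = 0.112; r = 0.20 without the farthest 2 strains), followed by Fmo4 between liver and lung, where r was negative (-0.26, p = 0.0806, q = 0.255). Fmo5 was computed only between liver and kidney (r = 0.13, p = 0.39, q = 0.494). In liver, Fmo2 was highest in CC012 (150.3 CPM), CC032 (144 CPM), CC035 (113 CPM) and CC036 (103 CPM), above CC015 at 61.3 CPM. Fmo4 in liver was led by CC035 (22.9 CPM), CC012 (20.3 CPM) and CC032 (17.6 CPM), and Fmo1 by CC012 (41.9 CPM), so that CC012 was at or near the top for all 3 clustered FMO genes. The livers of CC035 and CC036 ranked 1 and 3 of 47 for the kidney markers (733 and 279 CPM, median 24.8), and those of CC032 and CC012 ranked 2 and 3 for the pericentral hepatocyte markers (17800 and 17100 CPM, median 10100). CC033, ranked 2 for the kidney markers (563 CPM), and CC021, ranked 1 for the pericentral markers (23000 CPM), were not among the livers that led for Fmo2. Over the 47 livers, r with the pericentral markers was 0.32 for Fmo1, 0.17 for Fmo2 and -0.02 for Fmo4 (permutation q = 0.227, 0.563 and 0.959). The part of cell content in the FMO levels of these strains was not tested. In kidney, Fmo1 ran up to 4.89 CPM (CC019), with 90th and 10th percentiles 5.40-fold apart at a median count that allows a counting SD of 0.43 on the log2 scale.

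Within a tissue, 57 pairs of the 7 genes were correlated over strains, and 6 passed q ≤ 0.1, all positive, 3 in liver, 3 in lung and 0 in kidney. In liver they were the clustered genes Fmo1 and Fmo4 (r = 0.55, permutation p = 0.0001, q = 0.0057; rho = 0.53, p = 0.00015, q = 0.00285; r = 0.48 without the farthest 2), Fmo1 and Fmo2 (r = 0.52, p = 0.00025, q = 0.00627; rho = 0.56, p = 9e-05, q = 0.00256; r = 0.55 without 2) and Fmo2 and Fmo4 (r = 0.39, p = 0.00635, q = 0.0603; rho = 0.35, p = 0.0167, q = 0.158). The last rested on the farthest 2 strains, without which r was 0.27 (q = 0.422). In lung they were Fmo2 and Fmo4 (r = 0.51, permutation p = 0.00033, q = 0.00627; rho = 0.58, p = 7e-05, q = 0.00256; r = 0.54 without 2), Fmo2 and Xdh (r = 0.44, p = 0.00214, q = 0.0305; rho = 0.47, p = 0.00112, q = 0.016; r = 0.42 without 2) and Fmo4 and Xdh (r = 0.40, p = 0.00544, q = 0.0603; rho = 0.41, p = 0.00455, q = 0.0519; r = 0.38 and q = 0.121 without 2). On TPM without TMM, 24 pairs passed, so the count rests on the scale.

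**Figure D5:**
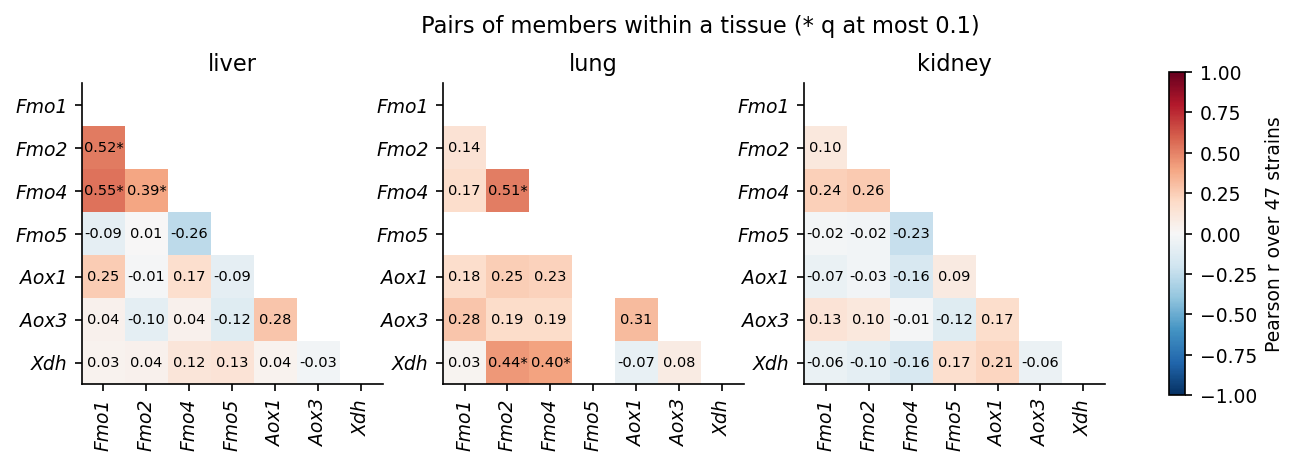
Pearson r over 47 strains for each pair of genes within a tissue, as color and number, with an asterisk at q ≤ 0.1; Fmo5 in lung was left out for low counts. The 6 pairs past the threshold were Fmo1, Fmo2 and Fmo4 with each other in liver, and Fmo2, Fmo4 and Xdh with each other in lung.

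The genes were also correlated with the mean log2 CPM of marker lists of the cell types of each tissue, as 158 relations. Fmo2 in kidney correlated negatively with the macrophage list (r = -0.51, permutation p = 0.00013, q = 0.0205; rho = -0.48, p = 0.00051, q = 0.0448) and the fibroblast list (r = -0.50, p = 0.00035, q = 0.0276; rho = -0.49, p = 0.00058, q = 0.0448), each with r = -0.43 without the farthest 2 strains. In lung, Fmo2 correlated negatively with the fibroblast list (r = -0.44, permutation p = 0.00215, q = 0.0849; rho = -0.48, p = 0.00085, q = 0.0448; r = -0.55 without 2). In liver, Aox3 correlated positively with the periportal hepatocyte list (r = 0.45, permutation p = 0.00143, q = 0.0753; rho = 0.42, p = 0.00344, q = 0.109; r = 0.48 without 2). No other relation passed q ≤ 0.1 by r, and Fmo4 with the fibroblast list in lung passed by rho alone (rho = -0.44, permutation p = 0.00201, q = 0.0794; r = -0.40, p = 0.00596, q = 0.142; r = -0.38 without 2).

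The 3 genes most like each member over strains were taken in the tissue of its highest mean TPM, by Pearson r of log2 CPM over 47 strains among all genes above 1 CPM in at least 50% of that tissue's libraries, as a description. By rho, 3 of the 3 stayed in the top 3 for Fmo2, 0 for Fmo1 and 1 for each of the other 5 members. For Fmo2 in lung they were the purine transporter gene Slc43a3 (r = 0.76), the circadian clock gene Per2 (0.75) and Tmem57 (0.73). For Xdh in lung they were the semaphorin Sema7a (0.70), Fkbp5, a glucocorticoid-induced cochaperone (0.69), and the sulfotransferase Sult1a1 (0.68). For Fmo1 in lung they were Tmem59 (0.71), Rbbp4 (0.66) and Fis1 (0.66). For Aox1 in liver they were the DNA repair gene Ercc5 (0.57), the collagen Col5a2 (0.50) and Pard3b (0.49), which lie on chromosome 1 as Aox1 does, starting at 44204589, 45431166 and 61685398, and which ranked 21, 49 and 1 by rho. For Aox3 in liver they were Gm38416 (0.62), Nars2 (0.59) and Serpina4-ps1 (0.58). For Fmo5 in liver they included Dock5 (0.64) and Prkab2 (0.63), and Prkab2 lies on chromosome 3, starting at 97462135, beyond the end of Fmo5 at 97459205. For Fmo4 in kidney they were Snx1 (0.54), Scaf11 (0.48) and Klf1 (0.48).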

How the data were processed

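RNA was measured in liver, lung and kidney of 1 male mouse from each of 47 strains. The authors prepared libraries from total RNA after ribosomal depletion, sequenced 50-base single-end reads, and aligned them with STAR 2.5.3a to pseudo-genomes and RefSeq pseudo-transcriptomes of each strain on Build37 (mm9). They quantified uniquely aligned reads with RSEM. The authors deposited an expected count per gene, of which 25 values were not whole, and these were rounded. TPM deposited by the authors is per transcript length, using the transcript length in the same files. Groups came from the tissue label, and the strain label pairs the tissues of a mouse. The authors fitted sequencing batch as a covariate. The sample labels used here give no batch, so no fit or correlation includes it. The part of batch in the differences between strains was not tested. The members, gene lists and tests were chosen with earlier results of these data known.

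Counts were scaled by TMM (edgeR 4.0.16), genes above 1 CPM in at least 30% of libraries entered a limma-voom fit of tissue and strain (limma 3.58.1 under R 4.3.3), and p-values were adjusted by Benjamini-Hochberg. A tissue call needed q ≤ 0.1 together with a log2 fold change of 1 or more in size. For correlations, TMM-normalized TPM was turned into normal scores by rank within each tissue (Blom offset 0.375), with 100000 permutations and Benjamini-Hochberg adjustment within each family, where the median count was above 3. That floor covers counting error only. Log2 CPM had a prior count of 1. Named are the members, the genes of 2 lists of relatives, the 2 genes per other list and tissue pair with the largest change past the threshold, and the 3 genes most like each member, of which a few results are not reported here. Alternatives were edgeR's quasi-likelihood test, DESeq2 1.42.0, other scalings, no filter, TPM with pseudocounts of 1 and 0.1, stricter or no thresholds, no strain block, 2 tissues at a time and strains left out. Steps were tested on simulated data. Scalings and residuals that use Rn45s, and the leaving out of CC016 and of CC015, CC024, CC030 and CC040, were added after seeing the data. Correlations and plots were made in Python 3.11.15 (with scipy 1.17.1, numpy 2.4.6, matplotlib 3.10.9 and pandas 2.3.3).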

Additional observations from a re-analysis of the deposited data

How the results depend on the processing

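Of the 7 genes, 6, 6 and 7 differed between liver and lung, liver and kidney, and lung and kidney, and over the alternatives these counts ranged from 4 to 7, 6 to 7 and 6 to 7. These counts pool both directions. On total counts and on log2(TPM + 1), only Fmo5 and Aox3 were called higher in liver than in lung, and Fmo2 and Xdh higher in lung. Fmo1 in liver against lung turned from 1.13 to -0.21 on total counts without TMM, -0.38 on log2(TPM + 1), -0.39 on log2(TPM + 0.1) and -0.053 on total counts without Rn45s and Lars2, and the cause was not tested. No other gene of the 7 turned in a tissue comparison. The block pairs the tissues of each mouse, and without the replicate block the counts were 6, 6 and 7, with no call changed. The count of 4 genes with a strain term past the threshold was 2 on total counts, on log2(TPM + 1), on log2(TPM + 0.1) and with only liver and lung, and 1 at q ≤ 0.01. The 4 between-tissue correlations became 7 without CC015, CC024, CC030 and CC040. These strains were picked for the values correlated, so that count is a description and cannot serve as a test. The 6 within-tissue pairs became 24 on TPM without TMM and 3 at q ≤ 0.01, and r of Aox1 and Xdh in lung turned from -0.07 to 0.53 on TPM without TMM. The cause was not tested. Counting error was large for Fmo5 in lung and kidney, where median counts were 3 and 5.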

Other observations

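Aox4, in the aldehyde oxidase cluster, was near 0 in most libraries and clearly present in a few. Its liver level was 12.5 TPM (168 counts) in CC041 and at most 0.25 TPM in the other livers. In lung it reached 16.7 TPM in CC042 (518 counts), 10.01 in CC059 and 9.13 in CC013, against a median of 0.08. In kidney its 2 highest values were in CC030 (1.30 TPM, 26 counts) and CC040 (0.51 TPM, 7 counts), which ranked 2 and 3 for Aox1 in kidney. CC024 and CC015, ranked 1 and 4 for Aox1 there, were not among the 3 highest kidneys for Aox4. Fmo6 in lung reached 18.9 TPM in CC049, against a median of 2.26. These strains were picked out after their values were seen, and no test was made of them.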
